A study of Mus musculus with 94 samples.

Results

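Medullary tubular segments were compared between entospletinib- and vehicle-treated mice on day 1 after ischemia-reperfusion injury (IRI). Segments were taken by their labels, which name the medulla and the PanCK stain, and this gave 4 of the 94 segments of the series, 2 per treatment. Kidney sections had been profiled by digital spatial profiling (DSP), in which the probes of a whole transcriptome panel for mouse (GeoMx) carry barcodes that UV light releases from a chosen area and that are then counted by sequencing. The counts are of unique molecular identifiers, so that PCR copies of a released barcode count once. Within each region of interest, stained cells were split into a tubular segment (PanCK alone or with CD10) and a macrophage segment (IBA1), and glomeruli were avoided.

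All mice were C57BL/6 males. Vehicle-treated mice (DMSO) and entospletinib-treated mice received their injection before unilateral renal IRI, and the time of this pretreatment differs between the labels and the study's methods. According to the methods, mice killed on day 1 had no further injection. Control segments came from uninjured kidneys, and the labels name contralateral kidneys as the source of controls. Day 7 and day 14 groups, used here for reference, had further injections of the same agent. Each group had 2 sections, told apart by the prefix of the label and called section 1 and section 2 here. The labels do not state that each section came from a separate mouse, so all p-values measure the spread between these sections only.

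Entospletinib is a selective inhibitor of spleen tyrosine kinase (SYK), which signals downstream of immune receptors and is found mainly in leukocytes and far less in tubular cells. Tubules of the outer medulla have a high oxygen demand and a low oxygen supply, and their cells are among the first to be injured when renal blood flow stops. After injury, surviving tubular cells lower the expression of transport and metabolic genes, switch on injury genes, and attract neutrophils and monocytes. The question was how medullary tubules of treated and untreated mice differed at the time of acute injury.

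Total counts differed greatly between the treatments. The vehicle-treated segments held 1863750 counts in section 1 and 1235205 in section 2, and the entospletinib-treated segments held 10109432 and 11699181. The mean total was thus 7.04-fold higher with entospletinib, and the ratio ranged from 5.42 to 9.47 over pairs of sections. The other 10 medullary tubular sums of the series held between 4408390 and 14254882 counts, so both vehicle-treated segments of day 1 lay below every other sum. Each day 14 sum pooled 2 segments and every other medullary tubular sum held 1, so single day 14 segments were not ranked. Cortical tubules of the same vehicle-treated sections held 8104918 and 9488876 counts, and those of the entospletinib-treated sections 6614737 and 13455270, which overlapped. These cortical totals pooled 3 segments in entospletinib section 1 and 2 in each of the other sections. In medullary macrophage segments the totals were 314406 and 185451 for vehicle, and 215899 and 184353 for entospletinib. The gap was therefore seen in medullary tubules and not in the other day 1 segments of these sections named here. It cannot be told from counts alone whether a segment with fewer counts held fewer cells or a smaller area or had less RNA per cell.

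**Figure D1:**
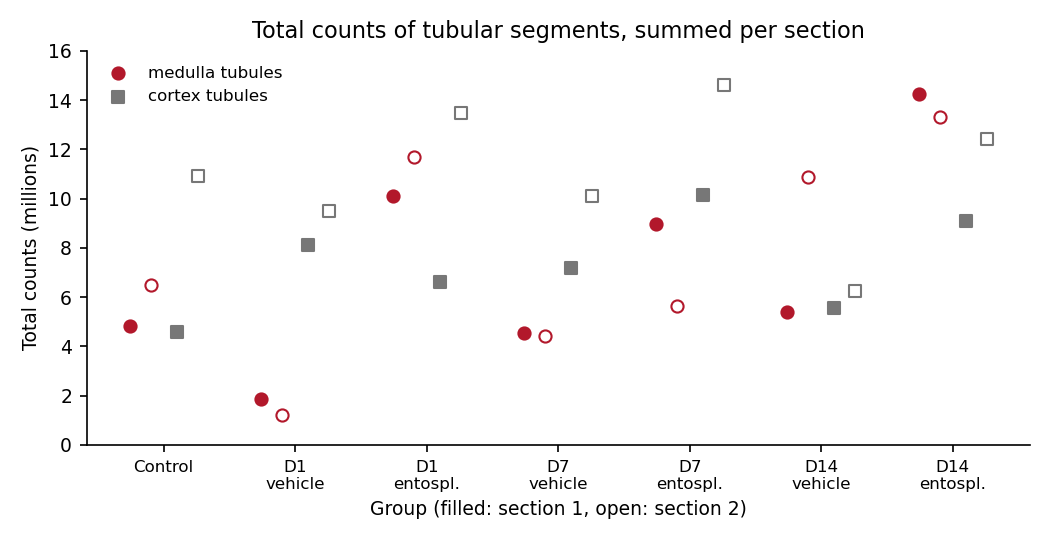
Total counts, drawn in units of 1000000 (y axis), of the tubular segments in each section, summed over regions, for the 7 groups (x axis), with the medulla as circles and the cortex as squares, section 1 filled and section 2 open. The medullary sums of vehicle-treated mice on day 1, at 1863750 and 1235205 counts, are the lowest of the 14, whereas the cortical sums of the same sections are among the other groups.

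The lower totals came with lower sequencing, although not in proportion. Aligned reads numbered 9052114 and 5542217 with vehicle and 33795998 and 45379666 with entospletinib, and sequencing saturation was 79.4% and 77.7% with vehicle and 70.1% and 74.2% with entospletinib. The share of reads aligned was 97.0% to 97.2% in all 4 segments. All 20175 probes were counted in each segment, with a lowest probe count of 7 and 4 with vehicle and of 60 and 48 with entospletinib. The median probe count was 51 and 34 with vehicle and 279 and 220 with entospletinib. The most abundant probe was the same in all 4 segments and took 4.51% and 3.56% of counts with vehicle and 3.13% and 4.45% with entospletinib, so a single probe did not set the totals.

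Because of this gap, levels were compared relative to each segment's own scale. Values below are counts per 1000000 (CPM) of totals scaled by the upper quartile of probe counts, and fold changes are on the log2 scale as fitted by edgeR, entospletinib over vehicle. On raw counts, both entospletinib-treated segments were above both vehicle-treated ones for 20122 of 20175 probes (99.7%), and both were below for 1 probe. A probe described as lower was thus lower relative to the other probes of its segment, which need not mean a lower number of counts. Probes are named in the files by an identifier alone, which the files do not pair with a gene, so neither the labelled cell type nor any pathway could be checked against marker genes, and probes are described by their levels and by their values in other segments.

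With entospletinib, 112 probes were higher and 184 were lower in medullary tubules than with vehicle, out of 20175 tested (0.555% and 0.912%, 1.47% in all). A probe was called by edgeR's quasi-likelihood test when its Benjamini-Hochberg adjusted p was under 0.05 and its log2 fold change was beyond 1 in either direction. The median log2 fold change was 1.83 over the probes called higher (median SE, 0.37) and -1.61 over those called lower (median SE, 0.31), against -0.0928 over all probes tested. The largest were 3.45 and -3.34. Changes beyond 4-fold made up 44 of the higher and 41 of the lower calls. At an unadjusted p under 0.05 there were 2331 probes.

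Each of the 296 called probes had both entospletinib-treated sections on the same side of both vehicle-treated sections. That was also so for 14% of all probes in the higher and 23.8% in the lower direction. The gap between the nearer sections exceeded 2-fold for 93 of the 112 higher probes and for 81 of the 184 lower probes, compared with 354 of 20175 probes (1.75%) in either direction. These same sections chose the probes, so the counts describe the calls and are not a separate test. On raw counts, all 112 higher probes had both entospletinib-treated sections above both vehicle-treated ones, with a median ratio of mean counts of 22.8, against 6.0 over all probes. Of the 184 lower probes, 151 also had both entospletinib-treated sections above both vehicle-treated ones in raw counts, and 1 had both below. The median ratio over the 184 was 2.2.

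Calls depended on the level of the probe. Probes were split into deciles by their mean level over the 14 medullary tubular sums. The median log2 fold change went from -0.21 in the lowest decile, where the median level was 11 CPM, to 0.335 in the highest, where it was 130 CPM. Of the 112 higher calls, 72 lay in the highest decile and none below the seventh, whereas lower calls were spread over the second to the highest decile, with 10 to 27 in each. The median level was 134 CPM for higher calls, 29.7 CPM for lower calls, and 25.5 CPM for probes without a call. In the lowest decile, which had no call in either direction, the median count was 23 and 17 in the vehicle-treated and 118 and 104 in the entospletinib-treated segments.

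**Figure D2:**
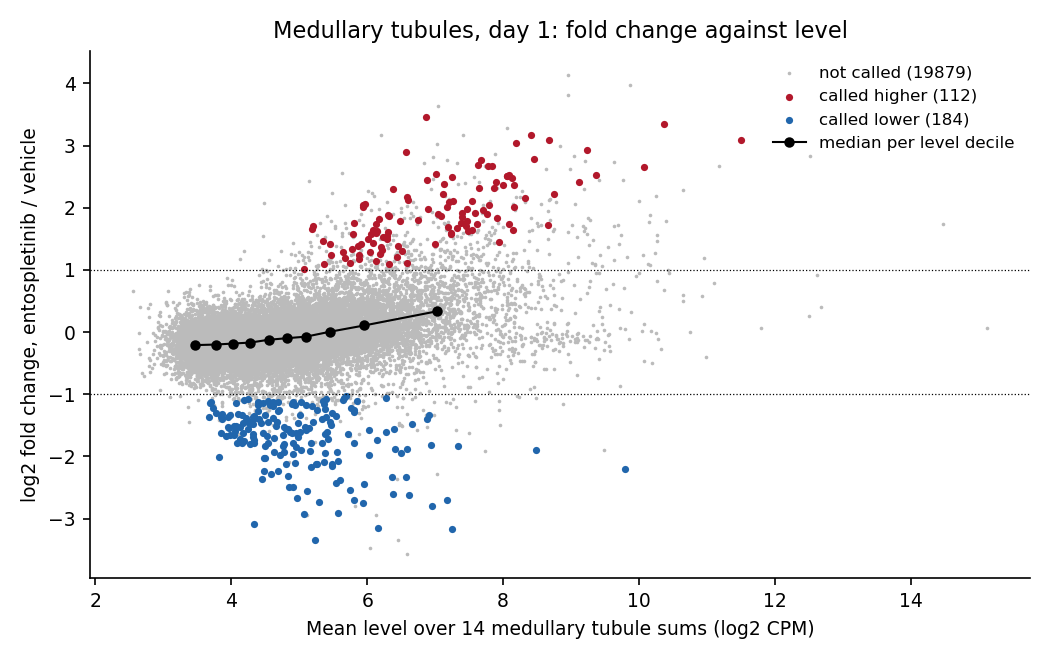
Log2 fold change of each of the 20175 probes, entospletinib over vehicle, in medullary tubules on day 1 (y axis) against its mean level in log2 CPM over the 14 medullary tubular sums (x axis), with the 112 probes called higher in red, the 184 called lower in blue, the others in gray, and the median of each decile of levels as black points. Dotted lines mark a log2 fold change of 1 in either direction, and the medians climb from -0.21 to 0.335 with the level.

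The split between directions changed with the processing. Higher probes were 37.8% of calls with upper quartile scaling, 34.4% with trimmed mean of M values (TMM) scaling (85 higher, 162 lower), 55.3% with DESeq2, which changes the test and the size factors together (280 higher, 226 lower), 58.6% when the 4 segments were fitted alone with upper quartile scaling (462 higher, 326 lower), and 58.4% after a stand-in for background was subtracted from each segment (157 higher, 112 lower). That stand-in was the segment's own 10th percentile of probe counts, since negative probes could not be told apart by identifier. After it was subtracted, 193 of the 296 probes were still called, 99 of the 112 higher and 94 of the 184 lower. When all 14 sums were thinned to the lowest total, 316 probes were called, 142 higher and 174 lower, and 237 of the 296 were among them. Under each of these settings, all 112 higher probes stayed above 0 in log2 fold change and all 184 lower probes stayed below 0. The same counts chose the probes, whose smallest log2 fold changes in absolute size were 1.02 (higher) and 1.03 (lower). The median over all probes stayed between -0.0967 and 0.00895 under these settings. The kept signs could thus hardly have come out otherwise and are not a separate test.

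The number of calls rested on single sections. Without vehicle section 2, edgeR called 4 probes, all lower, although 1317 had an unadjusted p under 0.05. Without entospletinib section 1 there were 36 calls and without entospletinib section 2 there were 189, while leaving out vehicle section 1 gave 322, of which 46 were higher and 276 lower. Whether any segment compared here is among the 2 samples that the authors left out as outliers is not known, and both vehicle-treated segments had the lowest totals of the medullary tubules. The section that remained alone was taken to have the same spread as the other groups. No probe of either set changed sign when a section was left out. Each called probe had both entospletinib-treated sections on the same side of both vehicle-treated ones, so this could hardly have come out otherwise. The median log2 fold change of the higher set stayed between 1.71 and 1.98 and that of the lower set between -2.01 and -1.11.

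In both sets, both vehicle-treated sections departed from the entospletinib-treated ones, and section 2 did so more. As these same sections chose the sets, the departures describe them and are not a separate test. Against the mean of the entospletinib sections, the median log2 difference of the lower set was -1.11 for vehicle section 1 and -2.01 for vehicle section 2, and 123 and 181 of the 184 probes differed by more than 2-fold. For the higher set it was 1.72 and 1.98, with 103 and 112 of the 112 probes over 2-fold. Vehicle section 2 exceeded vehicle section 1 by more than 2-fold for 78 of the 184 lower probes, whereas the reverse held for 2. In the higher set the vehicle sections were more than 2-fold apart for 11 of the 112 probes. Entospletinib-treated sections were that far apart for 10 of the 184 lower and 8 of the 112 higher probes, so they lay closer together than the vehicle sections in the lower set and about as close in the higher set. Over all 20175 probes, vehicle section 2 exceeded section 1 by more than 2-fold for 377, and the reverse held for 383. Entospletinib-treated sections were that far apart for 456. With 1 added to each CPM, 648 probes differed by more than 2-fold between the vehicle sections and 414 between the entospletinib sections. Between sections of different treatment, 857 to 1484 did so on that scale. Pearson's r of log2 CPM across probes, which are not independent replicates, was 0.905 between vehicle sections, 0.94 between entospletinib sections, and 0.829 to 0.913 between treatments.

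Levels of the higher set were near each other in controls and with entospletinib and lower with vehicle. The median of the 112 higher probes was 39.6 and 29.2 CPM in the vehicle-treated sections and 144 and 140 CPM in the entospletinib-treated sections of day 1. In the uninjured controls it was 176 and 140 CPM. The probes together took 0.627% and 0.482% of counts with vehicle, 2.80% and 2.08% with entospletinib, and 3.54% and 3.22% in controls. The vehicle sections were thus below both other groups, whereas entospletinib section 2 and control section 2 were level.

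The lower set had the opposite order. Its median was 43.3 and 85.1 CPM with vehicle, 18.5 and 20.2 CPM with entospletinib, and 16.0 and 17.3 CPM in controls. These probes took 1.41% and 2.66% of counts with vehicle, 0.476% and 0.513% with entospletinib, and 0.342% and 0.414% in controls. In control and entospletinib-treated segments they lay below the median of all probes (22.5 and 26.4 CPM in controls, 26.5 and 21 CPM with entospletinib) and with entospletinib section 2 they were close to it.

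Tested against controls, which these comparisons share, the higher set had a median log2 fold change of -2.17 with vehicle and -0.347 with entospletinib, beside 0.0677 and -0.0359 over all probes. The lower set had 1.82 and 0.206. As the sets were chosen by the difference between the treatments, these values describe where that difference lay and are not a separate test.

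**Figure D3:**
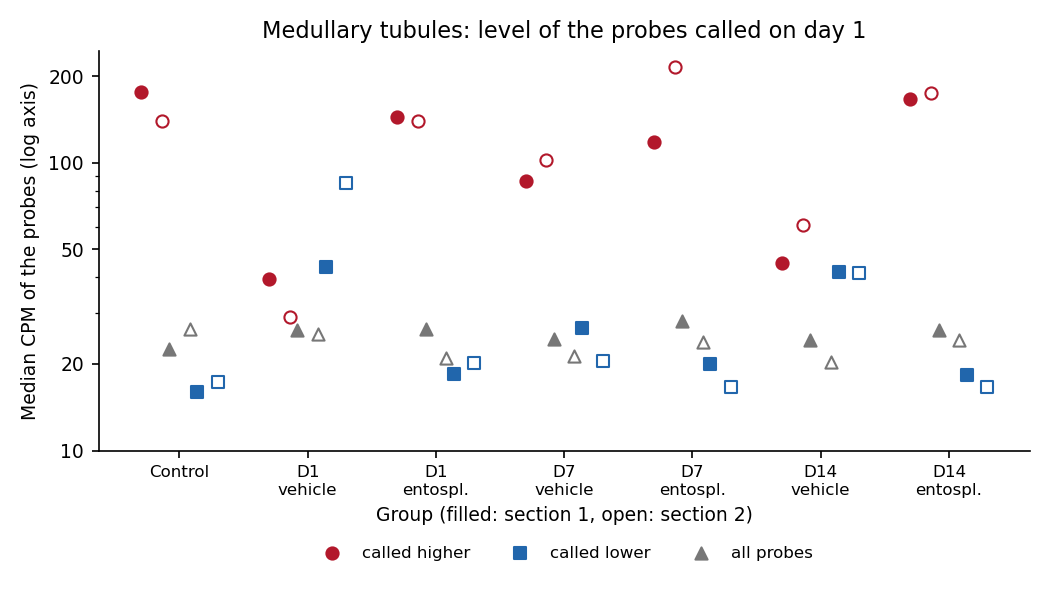
Median level in CPM on a log axis (y axis) of the 112 probes called higher (red circles), the 184 called lower (blue squares), and all 20175 probes (gray triangles) in the medullary tubules of each section of the 7 groups (x axis), with section 1 filled and section 2 open. On day 1 the vehicle-treated sections stand apart, with the red points at 39.6 and 29.2 CPM and the blue at 43.3 and 85.1 CPM, and the entospletinib-treated sections lie near the controls.

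The 2 higher and 2 lower probes with the smallest adjusted p show the pattern section by section. RTS0064205 was counted 91 and 46 times in the vehicle-treated and 3480 and 3607 times in the entospletinib-treated segments, which was 46.9 and 34.5 CPM against 331 and 345 CPM. Its mean was 40.7 ± 8.75 CPM with vehicle and 338 ± 9.90 CPM with entospletinib (SD, n = 2 each), and 385 ± 115 CPM in controls. The log2 fold change between treatments was 3.05 (SE, 0.42, edgeR adjusted p = 0.00592). Both vehicle-treated sections were far below the other day 1 and control sections. In cortical tubules of day 1 the same probe had 409 and 336 CPM with vehicle and 374 and 282 CPM with entospletinib, which overlapped.

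RTS0074157 was the steadier of the higher probes. Its level was 30.4 and 29.2 CPM with vehicle and 91.3 and 89.1 CPM with entospletinib, from counts of 59 and 39 against 960 and 932. The means were 29.8 ± 0.806 and 90.2 ± 1.53 CPM (SD, n = 2 each), with 84.6 ± 0.148 CPM in controls. The log2 fold change was 1.60 (SE, 0.23, edgeR adjusted p = 0.00596). Cortical tubules had 77.2 and 94.5 CPM with vehicle and 93.9 and 77.4 CPM with entospletinib, so the sections overlapped there too.

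RTS0069065 had the smallest adjusted p of all probes. It was at 111 and 96.0 CPM with vehicle and at 19.1 and 22.6 CPM with entospletinib, with means of 103 ± 10.4 and 20.8 ± 2.44 CPM (SD, n = 2 each) and 13.9 ± 2.10 CPM in controls. Its raw counts, 215 and 128 with vehicle and 201 and 236 with entospletinib, overlapped. Relative to the other probes its log2 fold change was -2.31 (SE, 0.22, edgeR adjusted p = 0.000611). It had 17.6 and 17.2 CPM with vehicle and 15.6 and 13.9 CPM with entospletinib in cortical tubules.

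RTS0066927 had the largest decrease of the called probes, and its vehicle sections were the furthest apart of the 4 probes. It was at 88.1 and 174 CPM with vehicle and at 12.8 CPM in both entospletinib-treated sections, from counts of 171 and 232 against 135 and 134. This was the only probe of all 20175 for which the raw counts of both entospletinib-treated sections lay below those of both vehicle-treated sections. Means were 131 ± 60.7 and 12.8 ± 0.0212 CPM (SD, n = 2 each), and 10.7 ± 2.79 CPM in controls. The log2 fold change was -3.34 (SE, 0.42, edgeR adjusted p = 0.00592). The level with entospletinib was near the 10th percentile of probe counts, which was 133 and 114 in these 2 segments.

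Among the 4 probes, RTS0069065 kept its call when any of the 4 sections was left out, with edgeR adjusted p-values from 0.000822 to 0.00692. Without vehicle section 2, the adjusted p was 0.116 for RTS0064205, 0.0941 for RTS0074157, and 0.059 for RTS0066927. The last probe was also not called without entospletinib section 1 (adjusted p = 0.0896) or section 2 (adjusted p = 0.0543).

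**Figure D4:**
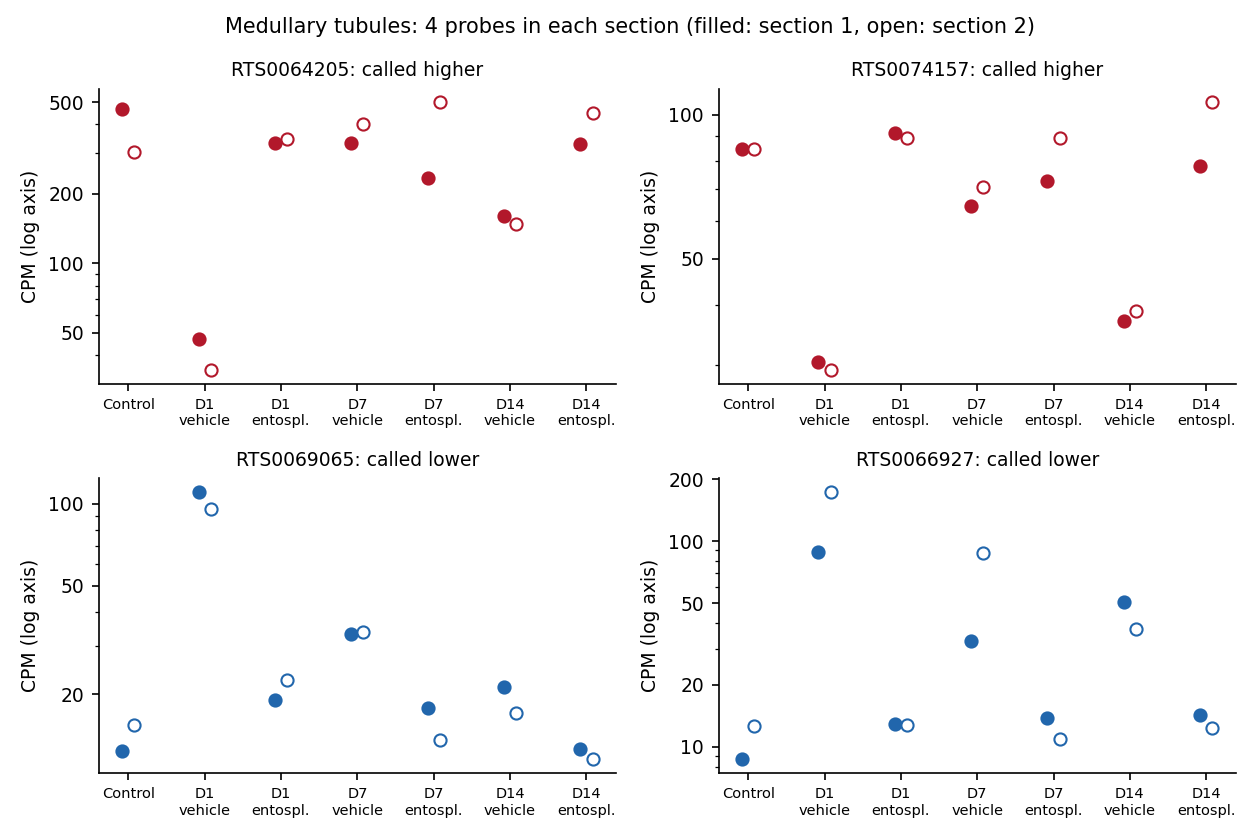
Level in CPM on log axes (y axes) of the 4 named probes in medullary tubules of each section of the 7 groups (x axes), with section 1 filled and section 2 open. The vehicle-treated sections of day 1 are the lowest of all for RTS0064205 and RTS0074157 and the highest of all for RTS0069065 and RTS0066927.

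In cortical tubules of the same sections, no probe was called between entospletinib and vehicle on day 1 (0 of 20175, 0%). With edgeR, 29 probes (0.144%) had an unadjusted p under 0.05, and DESeq2 made 0 calls with 58 at that level. This edgeR share is far below what a p threshold of 0.05 would give with no effect at all. The absence of calls therefore does not show that cortical tubules were unaffected. The 112 probes called higher in the medulla had a median log2 fold change of 0.0134 in the cortex, with quartiles of -0.0935 and 0.0872, and 61 were above 0. The 184 lower probes had a median of 0.066, and 59 were below 0. Over all probes the median was -0.00229 and 49.4% were above 0. Both sets were thus centered near 0 in the cortex.

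The difference between regions was tested directly, with the section as a term in the model. At an edgeR adjusted p under 0.05, 204 probes (1.01%) had a higher log2 fold change in the medulla and 169 (0.838%) a lower one. A larger decrease in the medulla counts as lower. In all, the effect of entospletinib differed between medulla and cortex for 373 probes (1.85%). The count was 47 in a model without the section, 21 without vehicle section 2, 77 without entospletinib section 1, and 69 without entospletinib section 2. Each of the 4 named probes passed, with differences in log2 fold change of 3.26 for RTS0064205 (adjusted p = 0.000172), 1.59 for RTS0074157 (adjusted p = 0.00221), -2.06 for RTS0069065 (adjusted p = 0.00187), and -3.03 for RTS0066927 (adjusted p = 0.00083). As the medullary values that chose these probes enter this test, their place in it is a description. In uninjured controls, neither set stood apart between regions, with median log2 ratios of medulla to cortex of -0.0855 and 0.0928 beside 0.0467 over all probes.

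Macrophage segments lie in the same regions of interest as the tubular segments and were counted separately. Their totals on day 1, from 184353 to 314406, overlapped between treatments. Of 9439 probes with enough counts, 28 were higher with entospletinib and 6 lower (0.297% and 0.0636%). Among these were 14 of the 109 measured members of the tubular higher set and 6 of the 163 of the tubular lower set. All 109 had a log2 fold change above 0 and 158 of the 163 had one below 0, beside 51.4% and 48.6% of all probes tested. Without a filter on low counts all members could be followed, and all 112 probes of the higher set had a log2 fold change above 0 in macrophage segments (median, 1.43) and 176 of the 184 of the lower set had one below 0 (median, -0.928), beside a median of 0.0128 over all probes. The change seen in medullary tubules was therefore also seen in direction in the macrophage segments beside them. The part of total counts in either was not tested.

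Without entospletinib section 1 the calls in macrophage segments fell to 9, and 3 of the higher and 1 of the lower tubular set were among them, beside 0.0544% and 0.0155% of all probes. Without vehicle section 2 there were 11 calls, with 3 and 6 of the sets, beside 0.031% and 0.0542%. Without entospletinib section 2 there were 108, with 39 and 14, beside 0.64% and 0.193%. RTS0064205 had 67.9 and 27.4 CPM with vehicle and 408 and 95.9 CPM with entospletinib in macrophage segments, from only 17, 4, 68, and 14 counts, and its log2 fold change of 2.30 did not pass (edgeR adjusted p = 0.056). RTS0066927 had 75.9 and 61.6 CPM with vehicle and 12.0 and 13.7 CPM with entospletinib, and its value of -2.41 did not pass either (edgeR adjusted p = 0.212).

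The sets differed in how their levels compared between macrophage and tubular segments of the other sections, whose tubular values entered the choice of the sets only through the shared estimate of the spread. Over the 10 medullary sections of controls and of days 7 and 14, the median log2 ratio of macrophage to tubular level was -1.05 for the higher set, 1.06 for the lower set, and -0.285 for all probes. Of the higher set, 61 of 112 (54.5%) were over 2-fold above in tubules and 0 were over 2-fold above in macrophages, while among all probes 7.76% and 1.60% were. Of the lower set, 95 of 184 (51.6%) were over 2-fold above in macrophages and 3 (1.63%) in tubules. The median for a section ranged from -1.64 to -0.318 for the higher set and from 0.419 to 1.80 for the lower set, so the signs held in each of the 10 sections. Macrophage segments held 41102 to 1207884 counts in these sections. Probes that were lower with entospletinib thus included many that were more abundant in IBA1+ segments. The vehicle-treated medullary tubules of day 1, where these probes were high, also had the lowest medullary tubular sums of counts. The part of neighboring macrophages or of low counts in the result was not tested.

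On later days, medullary tubules of other sections could be compared between the treatments in the same way. On day 14, 828 probes were higher with entospletinib (4.1%) and 852 lower (4.22%). The day 1 higher set had a median log2 fold change of 1.72 and 109 of 112 above 0, and 92 were called higher, which is 82.1% of the day 1 set and 11.1% of the day 14 higher calls. The lower set had a median of -1.29 and 163 of 184 below 0, and 107 were called lower, which is 58.2% of the day 1 set and 12.6% of the day 14 lower calls. Over all probes, 71.3% had a log2 fold change above 0 on day 14 and 28.7% one below 0. No member of either set was called in the opposite direction. Median levels on day 14 were 44.7 and 60.7 CPM with vehicle and 166 and 175 CPM with entospletinib for the higher set, and 41.8 and 41.3 CPM against 18.3 and 16.6 CPM for the lower set, so the sections did not overlap in either set.

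The median of all probes on day 14 was 0.355 with upper quartile scaling and 0.0632 with TMM. With TMM, 73 of the higher and 131 of the lower set were called, as were 2.0% and 7.02% of all probes in those directions. Without entospletinib section 2 of day 14 the numbers were 60 and 67, beside 1.98% and 2.51% of all probes. Total counts on day 14 were 5401593 and 10864351 with vehicle and 14254882 and 13292833 with entospletinib, a smaller gap than on day 1.

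On day 7 the difference was smaller. There were 62 higher (0.307%) and 255 lower (1.26%) calls, among them 10 of the higher and 27 of the lower set. The higher set had a median log2 fold change of 0.848 with 95 of 112 above 0, and the lower set -0.258 with 135 of 184 below 0, beside a median of 0.265 with 72.0% above 0 over all probes. Median levels of the higher set were 86.6 and 102 CPM with vehicle and 118 and 215 CPM with entospletinib, and those of the lower set were 26.7 and 20.5 CPM against 20.0 and 16.6 CPM, so the sections did not overlap, but the nearest of the lower set were only 20.5 and 20.0 CPM. Calls in the higher set numbered 28 without entospletinib section 1 of day 7, beside 1.17% of all probes, and 1 or 2 without any other day 7 section, beside 0.00496% to 0.0347% of all probes. Those in the lower set numbered 14 without vehicle section 1, 17 without entospletinib section 1, and 7 without entospletinib section 2 of day 7, beside 0.649%, 0.976%, and 0.258% of all probes.

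Calls in the same direction on all 3 days were made for 10 of the 112 members of the higher set and 25 of the 184 of the lower set. Another 20 and 75 members were called on day 1 alone. For comparison, calls covered 0.307% (higher) and 1.26% (lower) of all 20175 probes on day 7. The same shares for day 14 were 4.1% and 4.22%. A call on day 1 alone does not show that the effect differed between days. When the difference of effects was tested, 87 probes (0.431%) differed between day 14 and day 1, 14 with a greater (0.0694%) and 73 with a smaller log2 fold change on day 14 (0.362%), and 33 (0.164%) between day 7 and day 1 at an edgeR adjusted p under 0.05. RTS0064205 differed between day 7 and day 1 by -3.05 in log2 fold change (adjusted p = 0.0463), and vehicle-treated sections of day 7 had 333 and 401 CPM, between the entospletinib sections at 236 and 498 CPM. RTS0069065 differed between day 14 and day 1 by 1.65 (adjusted p = 0.0292), with 21.4 and 17.1 CPM with vehicle and 12.6 and 11.6 CPM with entospletinib on day 14. As the day 1 values that chose these named probes enter both tests, their place in them is a description.

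**Figure D5:**
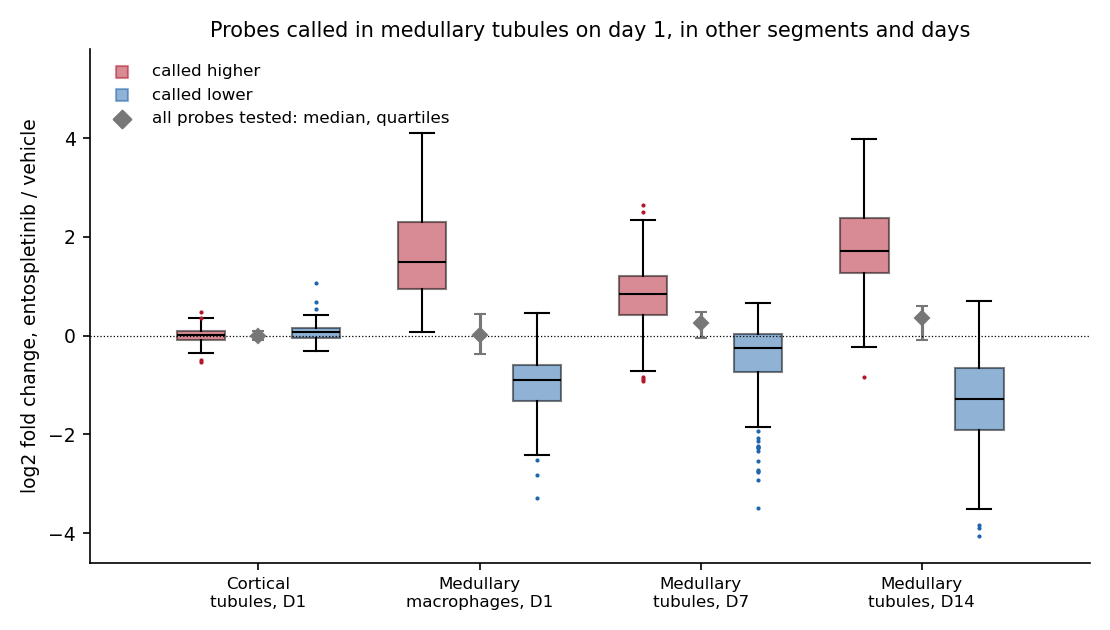
Log2 fold change, entospletinib over vehicle (y axis), of the probes called higher (red boxes) and lower (blue boxes) in medullary tubules on day 1, in cortical tubules and medullary macrophages of day 1 and in medullary tubules of days 7 and 14 (x axis), with boxes for quartiles, lines for medians, whiskers to 1.5 times the interquartile range, and gray diamonds with bars for the median and quartiles of all probes tested. The boxes sit at 0 in the cortex and lie apart on day 14, at medians of 1.72 and -1.29, and only probes that passed the filter on low counts are drawn for macrophages.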

How the data were processed

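DSP was performed by the authors on paraffin sections of mouse kidney. For each segment the authors deposited whole counts of unique molecular identifiers per probe, produced by the GeoMx NGS Pipeline (version 3.1.1.5 per the file headers). The submitters' processing notes name the build mm10 and R 4.3.1. The deposited counts precede the authors' background evaluation, gene aggregation, filtering, and upper quartile normalization. The authors excluded 2 samples as outliers that are not named in the sources used here, so none was left out, and whether they include segments compared here is not known.

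Counts were summed per section, compartment, and region. Probes with low counts were removed by filterByExpr (minimum count 10, minimum total 15), which kept all 20175 probes in tubules. Upper quartile scaling was applied, and groups were compared by edgeR 4.0.16 (glmQLFit, robust, and glmQLFTest, in R 4.3.3), with all 14 sums of a segment type sharing an estimate of the spread and Benjamini-Hochberg adjustment over all probes. Standard errors were obtained as the size of the log2 fold change over the root of the F statistic. Log2 ratios of macrophage to tubule and of medulla to cortex used a prior count of 2. DESeq2 1.42.0, limma-voom 3.58.1, TMM, no filter, the 4 segments alone, thinning, a background stand-in, a replicate block, and each section left out were alternatives. The fit was tested on simulated data. The medullary tubular sums held 1235205 counts or more, and the lowest probe count of a day 1 segment was 4, which limits the precision of low probes with vehicle.

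The probes named were the 2 higher and the 2 lower with the smallest adjusted p between the day 1 groups, ties by the larger absolute log2 fold change. The segments compared, the rule for naming, and the other segments examined were chosen with earlier results of these data known. Comparison of raw counts, of the spread within groups, and of macrophage with tubular levels over the other sections was added after the values were seen.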

Additional observations from a re-analysis of the deposited data

Results flagged for a closer look

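The effect of entospletinib differed between medullary and cortical tubules on day 1 for 373 probes, by a test of the difference itself (edgeR adjusted p under 0.05). The 4 named probes were among them, with differences of 3.26 for RTS0064205, 1.59 for RTS0074157, -2.06 for RTS0069065, and -3.03 for RTS0066927 in log2 fold change, medulla minus cortex. As the medullary values that chose them enter this test, their place in it is a description. The count was 468 without vehicle section 1, 21 without vehicle section 2, 77 without entospletinib section 1, 69 without entospletinib section 2, and 47 in a model without the section. The difference in total counts on day 1 was also a difference of medullary tubules, with 1863750 and 1235205 counts with vehicle, and its part in this result was not tested.

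Between day 14 and day 1, the effect in medullary tubules differed for 87 probes, 14 with a greater and 73 with a smaller log2 fold change on day 14. RTS0069065 was among them, with a difference of 1.65. The day 1 values that chose this probe enter the difference, so its place here is a description. The count was 342 with TMM scaling. It was 23 and 45 without vehicle section 1 or 2 of day 1, 48 without vehicle section 2 of day 14, and 0 and 2 without entospletinib section 1 or 2 of day 14. At the count of 0 by edgeR, 1928 probes had an unadjusted p under 0.05, and no other tool was run on this difference.

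Between day 7 and day 1, the effect differed for 33 probes, and RTS0064205 was among them, with a difference of -3.05. Its day 1 values chose this probe and enter the difference too. The count was 51 with TMM scaling. On day 1 it was 108 and 4 without vehicle section 1 or 2, and 76 and 8 without entospletinib section 1 or 2. On day 7 it was 12 and 5 without vehicle section 1 or 2, and 8 and 16 without entospletinib section 1 or 2.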

How the results depend on the processing

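Among the alternatives for medullary tubules on day 1, the 296 calls became 506 with DESeq2 on the sums, 516 with DESeq2 and each region as a replicate, and 788 in a fit of the 4 day 1 segments alone. The number of calls was 247 to 316 with TMM, no filter, thinning, limma-voom, or the background stand-in. Of the 296, 193 were still called with the background stand-in and 233 to 296 with the others of these. Leaving out a section gave between 4 calls, without vehicle section 2, and 322, without vehicle section 1. Under DESeq2 the log2 fold change over all probes had a median of 0.00895, in place of -0.0928. No call between treatments was made in cortical tubules on day 1 under any setting tried, DESeq2 included. In medullary macrophages the 34 calls became 86 without a filter on low counts and 9 to 108 when a section was left out. Differences of effects moved from 87 to 342 between day 14 and day 1 and from 33 to 51 between day 7 and day 1 with TMM, and ranged over 0 to 119 and 4 to 108 when a section was left out. Those between medulla and cortex were 47 with no replicate block and 21 to 468 when a section was left out. The causes were not tested. Depth limits probes of low level in vehicle-treated segments, and 2 sections per group limit every test.

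Same-numbered sections deviated together in some pairs of groups and not in others. Over 21 pairs the correlation of their deviations ranged from -0.511 to 0.627 and exceeded 0.1 for 11. It was 0.297 to 0.627 for the 10 pairs among the day 1 entospletinib, day 7, and day 14 groups, and 0.158, 0.297, and 0.38 between the treatments on days 1, 7, and 14, whereas the other 10 pairs, all with the controls or the day 1 vehicle group, were at or below 0.0708. As not every pair exceeded 0.1 and no label says what the number stands for, the sections were not treated as paired. With the label prefix as a replicate block, calls in medullary tubules on day 1 numbered 356 (155 higher, 201 lower), of which 286 were among the 296, and those in macrophages 76. The differences between day 14 and day 1 numbered 124.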
